A study of Arabidopsis thaliana with 30 samples.

Results

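The OTP genes (ORGANELLE TRANSCRIPT PROCESSING) of Arabidopsis thaliana are nuclear genes named for mutants that fail to mature particular chloroplast or mitochondrial transcripts. They were chosen here by name, as every probe set with exactly 1 locus whose gene symbol was OTP followed by digits. The rule found 8 genes with 1 probe set each among the 22746 probe sets tested: OTP43 (AT1G74900), OTP70 (AT4G25270), OTP80 (AT5G59200), OTP81 (AT2G29760), OTP84 (AT3G57430), OTP85 (AT2G02980), OTP86 (AT3G63370) and OTP87 (AT1G74600). The RefSeq gene table lists 10 OTP genes, and OTP51 (AT2G15820) and OTP82 (AT1G08070) had no probe set of their own in the annotation used here.

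Most OTP proteins are pentatricopeptide repeat proteins, which are made in the cytosol, enter a plastid or mitochondrion and bind short stretches of single-stranded organelle RNA. Some carry a C-terminal domain needed to edit a cytidine to a uridine at the bound transcript, and others are needed to splice an intron. In seedlings the expression of plastid genes, including these RNA processing steps, accompanies the assembly of the photosynthetic apparatus.

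The arrays measured RNA of whole seedlings of the Columbia wild type (WT) and of pifq, a mutant in PIF1, PIF3, PIF4 and PIF5, which encode transcription factors that phytochrome holds in check and that act in the response to shade. There were 10 groups of 3 arrays. In both genotypes WL0 seedlings had grown for 2 days in white light with a red to far-red ratio of 6.48. FR1, FR3 and FR24 seedlings were grown likewise and then kept for 1, 3 or 24 h in white light with added far-red, which lowered that ratio to 0.006 and imitates shade. WL24 seedlings stayed in the first light for the same 24 h, so they were 3 days old, as FR24 seedlings were. All groups were grown at 21 °C without sucrose at 19 µmol per m2 per s, after 1.5 h of white light on the imbibed seeds and 5 days at 4 °C in the dark, and replicates were grown and extracted separately.

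Each genotype was 1 line, so other differences between the lines and the mutations cannot be told apart. The FR1 and FR3 seedlings were 1 and 3 h older than the WL0 seedlings, so added far-red and elapsed time cannot be told apart there, while FR24 and WL24 seedlings were of the same age. In RNA of whole seedlings, fewer cells that express a gene and less of its RNA per cell cannot be told apart either. No probe set of a PIF gene was named in the annotation, so the mutated genes were not analysed here. Arrays of 1 group correlated at 0.995 to 0.998, no array stood apart, and green-tissue markers such as RCA, the Rubisco activase, were high on every array (13.64 to 14.02 on the log2 scale). Markers of root hairs were present too, with EXPA7 between 5.82 and 8.26 and EXPA18 between 6.42 and 8.89.

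All levels are log2 signals as deposited, and differences are log2 differences of group means with the standard error (SE) of the fit. A difference was called at an adjusted p under 0.05 from limma, adjusted by the Benjamini-Hochberg method over all 22746 probe sets. The OTP probe sets were dim. Their mean signals lay between the 3.14th percentile of all probe sets (OTP80) and the 48.8th (OTP70), and the median probe set was at 5.62. RMA compresses the differences of dim probe sets, and how far it did so here was not tested. No measure of background was analysed, so whether low levels of any of these probe sets lay at background was not tested either. Apart from describing probe sets as dim or high, signals of different probe sets were not set against each other.

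The 8 genes differed in how far their group means moved. Those of OTP81 spanned 1.89 on the log2 scale, a wider span than that of 96.4% of the probe sets tested. The span was 0.95 for OTP84 (wider than 79.1% of probe sets) and 0.47 for OTP85 (wider than 47.5%). It was 0.37 for OTP87, 0.34 for OTP86, 0.28 for OTP70, 0.24 for OTP43 and 0.14 for OTP80, each narrower than that of the median probe set.

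**Figure D1:**
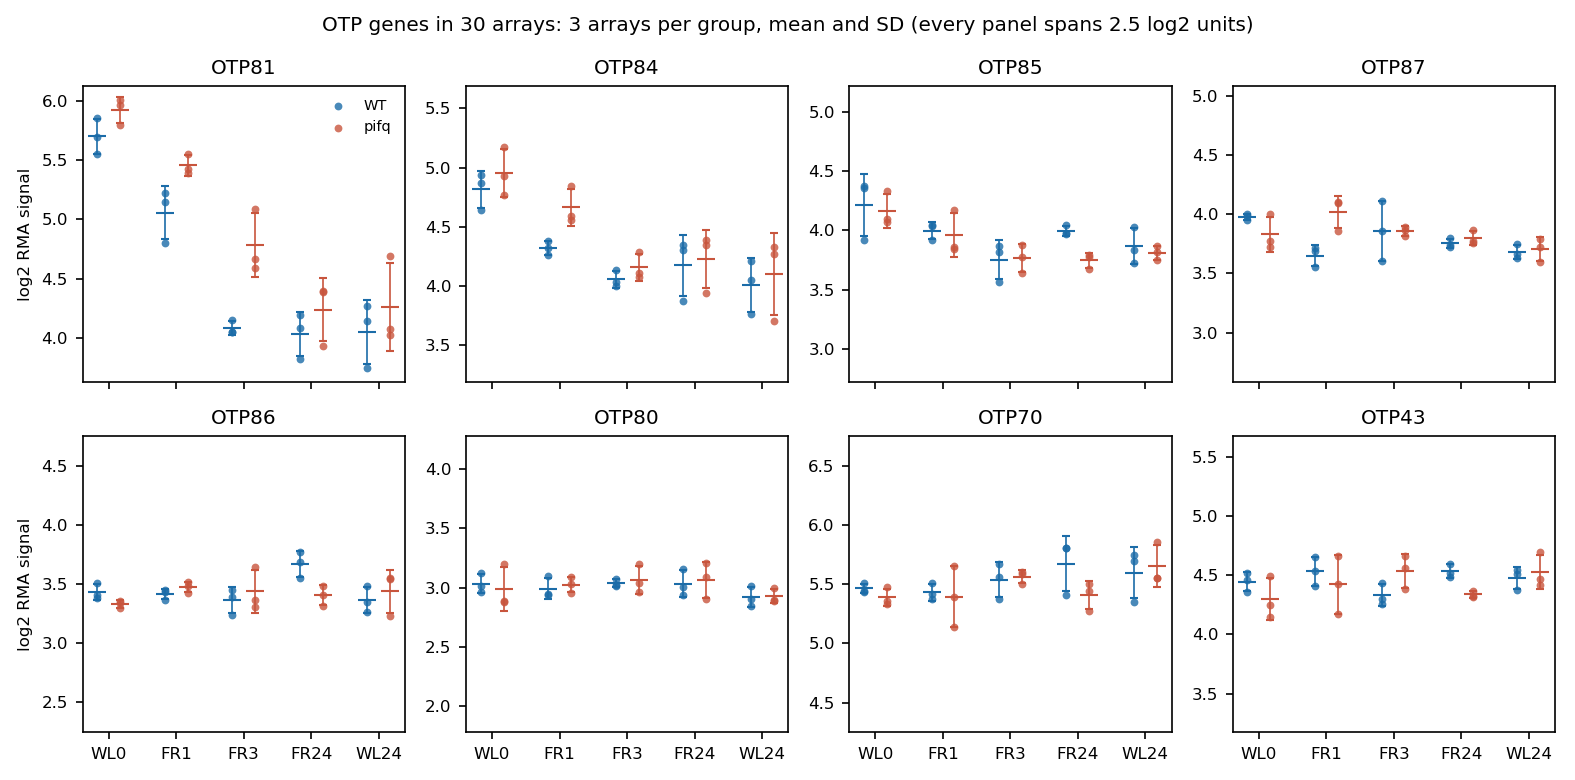
Log2 signal of the 8 OTP probe sets (vertical axis, each panel spanning 2.5 log2 units) in the 5 light groups (horizontal axis) of WT (blue) and pifq (red). Points are arrays, and the horizontal and vertical lines are the mean and SD of 3 arrays. OTP81 fell from 5.70 in WT WL0 to 4.08 in WT FR3, while OTP80 stayed between 2.92 and 3.07 in all group means.

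OTP81, needed for an editing event in the intron of the plastid rps12 transcript, fell most. In WT its 3 WL0 arrays read 5.86, 5.56 and 5.69. After 1 h of added far-red the arrays read 5.14, 5.23 and 4.80, and after 3 h they read 4.05, 4.15 and 4.05. Every FR3 array lay below every FR1 array, and every FR1 array below every WL0 array. OTP81 had fallen by 0.64 ± 0.16 (SE, n = 3 per group) at 1 h (limma adjusted p = 0.00302) and by 1.62 ± 0.16 at 3 h (adjusted p = 9.11e-10), which is 3.07-fold. The further fall between 1 and 3 h was 0.97 ± 0.16 (adjusted p = 2.66e-05).

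By day 3 the OTP81 signal of WT seedlings was low in either light. The FR24 arrays read 4.19, 4.09 and 3.83, and the WL24 arrays read 4.14, 3.75 and 4.27. The groups overlapped, and their difference was -0.02 with a 95% interval from -0.34 to 0.31 (limma adjusted p = 0.956). Seedlings that had stayed in white light had thus fallen by 1.65 ± 0.16 from WL0 (3.14-fold, adjusted p = 2.79e-10). The FR24 arrays also overlapped the FR3 arrays, with a difference of -0.05 (interval -0.37 to 0.27, adjusted p = 0.842).

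In pifq OTP81 also fell, and stood higher than in WT at 3 h. Its arrays read 6.01, 5.80 and 5.97 in WL0, 5.39, 5.42 and 5.56 in FR1, and 4.59, 4.66 and 5.09 in FR3. The array at 5.09 was the highest of the FR3 group and lay below every FR1 array. The difference at 1 h, -0.47 ± 0.16, missed the threshold (limma adjusted p = 0.0823) although the arrays did not overlap, and at 3 h OTP81 had fallen by 1.14 ± 0.16 (2.2-fold, adjusted p = 1.29e-06). Between 1 and 3 h it fell by 0.67 ± 0.16 (adjusted p = 0.00313).

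All 3 pifq FR3 arrays exceeded all 3 WT FR3 arrays. OTP81 was 0.70 ± 0.16 higher in pifq at FR3 (interval 0.38 to 1.02, limma adjusted p = 0.00274), which is 1.62-fold, and 0.54 higher without the pifq array at 5.09 (adjusted p = 0.0468). The arrays of the genotypes were also apart at FR1, where the difference of 0.40 ± 0.16 was not called (adjusted p = 0.0959). In the other groups the arrays overlapped, and pifq minus WT was 0.22 in WL0, 0.20 in FR24 and 0.21 in WL24, with adjusted p from 0.463 to 0.69. The test of the difference between the 3 h responses themselves gave 0.48 (interval 0.02 to 0.93, unadjusted p = 0.0411, adjusted p = 0.387), so the genotypes' 3 h falls were not called different.

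On day 3 OTP81 was low in pifq too. Its FR24 arrays read 4.39, 3.93 and 4.39, and its WL24 arrays read 4.08, 4.03 and 4.69. These groups overlapped each other and the WT groups, though the 3 highest pifq arrays exceeded every WT array of day 3, and FR24 minus WL24 was -0.03 (interval -0.35 to 0.29, limma adjusted p = 0.933). OTP81 fell by 1.66 ± 0.16 from WL0 to WL24 in pifq (adjusted p = 3.17e-10), against 1.65 in WT. In a comparison added after the levels were seen, pifq FR24 lay 0.55 ± 0.16 below pifq FR3 (adjusted p = 0.00627). That call was lost without the highest FR3 array (adjusted p = 0.0756) or without the lowest FR24 array (adjusted p = 0.0725).

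In order of group means OTP81 ran from pifq WL0 (5.92 ± 0.11, SD, n = 3) through WT WL0 (5.70 ± 0.15), pifq FR1 (5.46 ± 0.09) and WT FR1 (5.06 ± 0.22) to pifq FR3 (4.78 ± 0.27). Then followed pifq WL24 (4.26 ± 0.37), pifq FR24 (4.24 ± 0.27), WT FR3 (4.08 ± 0.06), WT WL24 (4.05 ± 0.27) and WT FR24 (4.03 ± 0.19). Of the neighbours in this order, arrays were apart only between pifq FR1 and WT FR1, a difference that was not called. The levels of the last groups, from pifq WL24 on, all overlapped.

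OTP84, needed for editing of the plastid ndhB, ndhF and psbZ transcripts, fell in both genotypes. Its WT arrays read 4.94, 4.87 and 4.64 in WL0, 4.32, 4.26 and 4.38 in FR1, and 4.03, 4.00 and 4.13 in FR3. The arrays of these groups did not overlap. OTP84 had fallen by 0.50 ± 0.15 at 1 h (limma adjusted p = 0.0119) and by 0.76 ± 0.15 at 3 h (1.7-fold, adjusted p = 8.83e-05). The 1 h call was lost without WT WL0 replicate 1, at an adjusted p of 0.0606.

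The pifq arrays of OTP84 read 5.17, 4.93 and 4.77 in WL0, 4.84, 4.59 and 4.56 in FR1, and 4.07, 4.29 and 4.11 in FR3. The FR1 arrays overlapped those of WL0, and the FR3 arrays lay below both. The difference at 1 h was -0.29 ± 0.15 (limma adjusted p = 0.318), and at 3 h OTP84 had fallen by 0.80 ± 0.15 (1.74-fold, adjusted p = 7.83e-05). From 1 to 3 h it fell by 0.51 ± 0.15 in pifq (adjusted p = 0.0169), a call lost without pifq FR1 replicate 1 (adjusted p = 0.103) or pifq FR3 replicates 1 or 3 (adjusted p = 0.0802 and 0.0514). The 3 h responses of the genotypes differed by -0.03 (interval -0.46 to 0.39, adjusted p = 0.985).

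On day 3 OTP84 arrays overlapped between light groups and genotypes. They read 4.31, 3.88 and 4.34 in WT FR24 and 3.76, 4.05 and 4.21 in WT WL24, a difference of 0.17 (interval -0.13 to 0.47, limma adjusted p = 0.467). In pifq they read 4.39, 3.94 and 4.35 in FR24 and 3.71, 4.27 and 4.33 in WL24, a difference of 0.13 (interval -0.17 to 0.42, adjusted p = 0.617). OTP84 fell by 0.81 ± 0.15 from WL0 to WL24 in WT (1.75-fold, adjusted p = 2.34e-05) and by 0.85 ± 0.15 in pifq (1.81-fold, adjusted p = 1.27e-05). Pifq minus WT lay between 0.05 and 0.35 in the 5 light groups and was not called in any, with the largest difference at FR1 (0.35 ± 0.15, adjusted p = 0.12).

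OTP85, needed for editing of the plastid ndhD transcript, fell less. Its WT arrays read 4.38, 3.92 and 4.36 in WL0, 4.04, 3.92 and 4.05 in FR1, and 3.87, 3.56 and 3.82 in FR3. WL0 replicate 2 was low and fell among the FR1 arrays, while every FR3 array lay below every FR1 and WL0 array. The difference at 1 h was -0.22 ± 0.11 (limma adjusted p = 0.168), which without that WL0 array was -0.37 and called (adjusted p = 0.0169). At 3 h OTP85 had fallen by 0.46 ± 0.11 (1.38-fold, adjusted p = 0.000981).

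In pifq the OTP85 arrays read 4.097, 4.33 and 4.07 in WL0, 3.85, 4.17 and 3.86 in FR1, and 3.78, 3.64 and 3.88 in FR3. The FR1 arrays overlapped both other groups, and the FR3 arrays lay below the WL0 arrays. OTP85 had fallen by 0.40 ± 0.11 at 3 h (limma adjusted p = 0.00525), with an adjusted p of 0.0501 when pifq WL0 replicate 2 was left out. The genotypes' 3 h responses differed by 0.06 (interval -0.25 to 0.38, adjusted p = 0.951).

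On day 3 the WT arrays of OTP85 read 4.04, 3.98 and 3.97 in FR24 and 3.73, 3.84 and 4.03 in WL24, and the pifq arrays read 3.78, 3.79 and 3.67 in FR24 and 3.86, 3.82 and 3.75 in WL24. Light groups overlapped in both genotypes. FR24 minus WL24 was 0.13 in WT (limma adjusted p = 0.447) and -0.06 in pifq (adjusted p = 0.75). In FR24 all pifq arrays lay below all WT arrays, by 0.25 ± 0.11 on average, which was not called (adjusted p = 0.172). From WL0 to WL24 OTP85 fell by 0.35 ± 0.11 in both genotypes (adjusted p = 0.00837 in WT and 0.00804 in pifq). The WT call, between groups that overlap, was lost without WT WL0 replicate 1 or 3 or WT WL24 replicate 1 (adjusted p = 0.069, 0.0622 and 0.058), and the pifq call without pifq WL0 replicate 2 (adjusted p = 0.0677).

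OTP86, needed for editing of the plastid rps14 transcript, was not called lower in any comparison and was higher in WT after 24 h of added far-red. Its WT arrays read 3.77, 3.68 and 3.55 in FR24 against 3.26, 3.48 and 3.35 in WL24. The groups did not overlap, and OTP86 had risen by 0.30 ± 0.09 (1.23-fold, limma adjusted p = 0.0154). Leaving out the first replicate of FR24 or of WL24 ended the call, at adjusted p = 0.0842 and 0.0808. Earlier WT arrays lay between 3.24 and 3.51, and FR24 also exceeded FR3 by 0.30 ± 0.09 (adjusted p = 0.00735, or 0.0575 without WT FR3 replicate 2).

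In pifq the OTP86 arrays read 3.41, 3.49 and 3.32 in FR24 and 3.54, 3.55 and 3.23 in WL24. These overlapped, with a difference of -0.03 (interval -0.22 to 0.15, limma adjusted p = 0.848). The genotypes' 24 h responses differed by -0.34 (interval -0.60 to -0.07), at an unadjusted p of 0.0148 and an adjusted p of 0.152, so that difference was not called. The WT FR24 arrays all exceeded the pifq FR24 arrays, with pifq minus WT at -0.26 ± 0.09 (adjusted p = 0.0743).

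OTP80, needed for editing of the plastid rpl23 transcript, gave the dimmest of the 8 signals and no call in any of the 20 comparisons. Its 30 arrays read between 2.85 and 3.21. All its group means lay between 2.92 and 3.07, with an SE of 0.09 for a difference of means. No measure of background was analysed here, so whether the probe set detected its transcript was not tested.

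OTP70, needed to splice the intron of the plastid rpoC1 transcript, was not called in any comparison either. Its WT arrays read 5.44, 5.44 and 5.51 in WL0, 5.81, 5.81 and 5.41 in FR24, and 5.35, 5.70 and 5.74 in WL24. Its pifq arrays read 5.47, 5.36 and 5.33 in WL0, 5.50, 5.45 and 5.28 in FR24, and 5.55, 5.86 and 5.55 in WL24. Day 3 arrays of WT spread more widely than those of WL0, and the pifq WL24 arrays exceeded all pifq WL0 and FR24 arrays. WL24 minus WL0 was 0.26 ± 0.12 in pifq (limma adjusted p = 0.067), FR24 minus WL24 was -0.25 ± 0.12 in pifq (adjusted p = 0.171), and the same differences in WT were 0.13 and 0.08. In pifq WL24 minus WL0 passed when dim probe sets were left out (adjusted p = 0.0488) or arrays were centred on their medians (adjusted p = 0.0374).

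OTP87 acts in mitochondria, where it is needed for editing of the nad7 and atp1 transcripts. Its WT arrays read 3.95, 3.98 and 4.00 in WL0 and 3.55, 3.71 and 3.69 in FR1. The groups were apart, and OTP87 had fallen by 0.33 ± 0.09 (1.25-fold, limma adjusted p = 0.0109, or 0.0715 without WT FR1 replicate 1). At 3 h the WT arrays read 3.61, 3.85 and 4.11, a spread that reached from the FR1 to above the WL0 arrays, and the difference from WL0 was -0.12 ± 0.09 (adjusted p = 0.374). Without WT FR3 replicate 3 it was -0.25 (adjusted p = 0.0402).

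In pifq the OTP87 arrays moved the other way at 1 h without a call. They read 4.00, 3.77 and 3.72 in WL0 and 4.1003, 3.8617 and 4.0965 in FR1, which overlapped, with a difference of 0.19 ± 0.09 (limma adjusted p = 0.313). All pifq FR1 arrays exceeded all WT FR1 arrays, by 0.37 ± 0.09 on average (1.29-fold, adjusted p = 0.00825). That call was lost without WT FR1 replicate 1 (adjusted p = 0.0622) or pifq FR1 replicate 1 (adjusted p = 0.0524). The 1 h responses differed by 0.52 ± 0.13 (interval 0.24 to 0.79, unadjusted p = 0.000576), with an adjusted p of 0.0785. The adjusted p was 0.034 without pifq WL0 replicate 1 and 0.0446 without pifq FR1 replicate 2.

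On day 3 OTP87 read 3.74, 3.80 and 3.72 in WT FR24 and 3.63, 3.67 and 3.75 in WT WL24. These overlapped, as did 3.78, 3.76 and 3.87 in pifq FR24 and 3.59, 3.72 and 3.79 in pifq WL24. From WL0 to WL24 OTP87 fell by 0.30 ± 0.09 in WT (limma adjusted p = 0.00937), and the difference in pifq was -0.13 ± 0.09 (adjusted p = 0.28).

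OTP43, needed to splice in trans the first intron of the mitochondrial nad1 transcript, was not called in any comparison. Its 30 arrays read between 4.15 and 4.69, and its group means between 4.30 and 4.54. The largest difference with an unadjusted p under 0.05 was that of the 3 h responses, 0.35 ± 0.15 (pifq minus WT, unadjusted p = 0.0232, limma adjusted p = 0.283). It combined a 3 h difference of 0.24 ± 0.10 in pifq (adjusted p = 0.0894) with one of -0.12 ± 0.10 in WT (adjusted p = 0.452). The pifq difference passed the threshold when the first pifq WL0 array (adjusted p = 0.024) or pifq FR3 replicate 2 was left out (adjusted p = 0.0423).

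**Figure D2:**
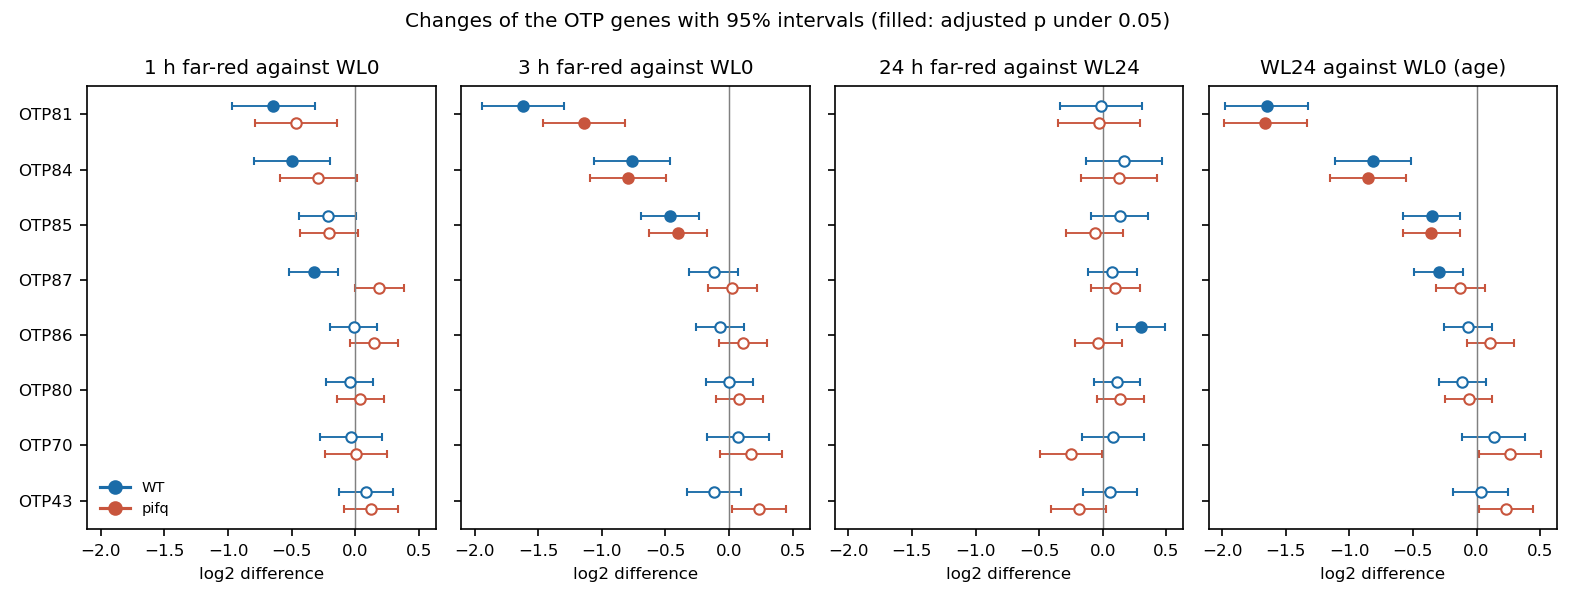
Log2 differences (horizontal axis) of the 8 OTP genes (vertical axis) in WT (blue) and pifq (red), with 95% intervals of the limma fit. Filled points have an adjusted p under 0.05. OTP81, OTP84 and OTP85 lie below 0 in the 3 h and the WL24 panels in both genotypes, and in the FR24 panel OTP86 in WT, at 0.30, is the one filled point.

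Counted over the 8 genes, 3 fell in WT at 1 h, where 12.5% of all probe sets were called lower. At 3 h 3 fell in WT, where 18% of all probe sets were called lower. In pifq limma called 0 of 8 at 1 h, where 1 had an unadjusted p under 0.05 and 5.83% of all probe sets were called. At 3 h 3 of 8 fell in pifq, where 15.3% were called lower. From WL0 to WL24 4 of 8 fell in WT, where 23.6% of probe sets were called lower, and 3 of 8 fell in pifq, where 23.8% were.

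The median difference of the 8 genes in WT was -0.13 at 1 h against -0.03 over all probe sets, -0.12 at 3 h against 0.00, and -0.20 from WL0 to WL24 against 0.02. In pifq the same medians were 0.02 against -0.01, 0.05 against 0.02, and -0.09 against 0.06. The FR1, FR3 and WL24 comparisons of a genotype share its WL0 arrays, so a high WL0 array would move all of them.

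The light groups of the same age were FR24 and WL24. FR24 against WL24 gave 1 of 8 higher in WT (OTP86), where 11.6% of probe sets were called higher. In pifq limma called 0 of 8, with 1 at an unadjusted p under 0.05, where 14.8% were called.

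Between genotypes 1 of 8 was called higher in pifq at FR1 (OTP87), where 7.08% of probe sets were called higher, and 1 of 8 at FR3 (OTP81), where 5.47% were. In limma 0 of 8 were called at WL0, FR24 and WL24, where 1.67%, 8.31% and 8.6% of probe sets were called, and 0, 3 and 0 genes had an unadjusted p under 0.05. Of the 24 tests of a difference between the genotypes' responses (8 genes at 3 times), limma called 0, and 4 had an unadjusted p under 0.05. Of all probe sets 0.475% were called for that difference at 1 h, 3.2% at 3 h and 3.75% at 24 h.

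From 1 to 3 h 1 of 8 fell in WT (OTP81) and 2 of 8 in pifq (OTP81 and OTP84), where 9.93% and 7.57% of probe sets were called lower. From 3 to 24 h of added far-red, a comparison added after the levels were seen, 1 of 8 rose in WT (OTP86), where 19.4% of probe sets were called higher. In pifq 1 of 8 fell (OTP81), where 19.9% were called lower.

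Over the 10 group means OTP81 and OTP84 had the most similar profiles of any pair of the 8 (Pearson's r = 0.94), followed by OTP84 with OTP85 (r = 0.83) and OTP81 with OTP85 (r = 0.76). The most opposed pair was OTP70 with OTP81 (r = -0.70). These values describe 10 means that share arrays within each group, and no test was made of them. Among 1550 other probe sets that have 1 locus and a symbol, the profile most like that of OTP81 was that of Prx37, a class III peroxidase (r = 0.990). Next came tny, an AP2/ERF-type transcription factor (r = 0.983), and CRR41, which helps to assemble the chloroplast NDH complex (r = 0.981). For OTP84 they were UF3GT, a glycosyltransferase of anthocyanin synthesis (r = 0.982), SDH2-1, an iron-sulphur subunit of mitochondrial succinate dehydrogenase (r = 0.980), and MRL7-L (r = 0.974). For OTP85 they were the plastid gene psaB of photosystem I (r = 0.954), scpl42, a serine carboxypeptidase-like gene (r = 0.941), and the plastid gene rbcL of the Rubisco large subunit (r = 0.924).

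Other nuclear factors of plastid RNA editing fell at 3 h as well. Of 31 names listed, 4 had a probe set of their own. These were CRR21, CRR22 and CRR28, which act on transcripts of the NDH complex, and LPA66, which acts on psbF. At 3 h 4 of 4 fell in both genotypes, with medians of -0.85 in WT and -0.51 in pifq against 0.00 and 0.02 over all probe sets, of which 18% and 15.3% were called lower. CRR21 fell by 1.15 in WT and by 0.73 in pifq (limma adjusted p = 1.41e-07 and 0.000232). LPA66 fell by 0.96 and 0.53 (adjusted p = 6.48e-09 and 0.000138). CRR28 fell by 0.75 and 0.49 (adjusted p = 9.39e-07 and 0.000578). CRR22 fell by 0.68 in WT and by 0.35 in pifq, with an adjusted p of 0.0509 in pifq without pifq FR3 replicate 2.

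At 3 h CRR21, LPA66 and CRR28 were higher in pifq than in WT, by 0.48, 0.40 and 0.34 (limma adjusted p = 0.034, 0.00976 and 0.0333). Of all probe sets 5.47% were called higher in pifq there. The test of the difference between the genotypes' 3 h responses called 0 of the 4 in limma, with 3 at an unadjusted p under 0.05. Of all probe sets 3.2% were called for that difference. The calls of CRR21 and of CRR28 at FR3 were each lost without any of 4 single arrays, and that of LPA66 without 1. The highest adjusted p was 0.207 for CRR21 (without WT FR3 replicate 3), 0.0645 for LPA66 (without WT FR3 replicate 2) and 0.191 for CRR28 (without WT FR3 replicate 1).

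After 24 h of added far-red 3 of the 4 were higher in WT, where 11.6% of all probe sets were called higher, a comparison in which OTP81, OTP84 and OTP85 were not called. Against WL24, CRR21 rose by 0.51, CRR28 by 0.39 and LPA66 by 0.33 in WT (limma adjusted p = 0.00984, 0.00653 and 0.0164). The call of CRR21 was lost without WT FR24 replicate 3 (adjusted p = 0.0741). That of LPA66 was lost without any of 3 single arrays, with an adjusted p of up to 0.088 (without WT WL24 replicate 2). In pifq limma called 0 of the 4, with 1 at an unadjusted p under 0.05, and their median was 0.11, where 14.8% of all probe sets were called. In FR24 LPA66 was lower in pifq than in WT, with pifq minus WT at -0.48 (adjusted p = 0.0023), and the genotypes' 24 h responses of LPA66 differed by -0.54 (adjusted p = 0.0317). The latter call was lost without any of 6 single arrays, with an adjusted p of up to 0.112 (without pifq FR24 replicate 2), and with only the arrays compared in the fit (adjusted p = 0.146).

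From day 2 to day 3 in white light 4 of 4 fell in both genotypes, with medians of -0.64 in WT and -0.50 in pifq, where 23.6% and 23.8% of all probe sets were called lower. The call of CRR22 in pifq (-0.24, limma adjusted p = 0.0356) was lost without either of 2 WL0 arrays (replicates 1 and 2) or 2 WL24 arrays (replicates 2 and 3), with an adjusted p of up to 0.129.

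Of 24 names of plastid splicing factors other than OTP, 3 had a probe set of their own. CAF1, a partner of CRS2 in group II intron splicing, fell by 0.93 in WT and by 1.00 in pifq at 3 h (limma adjusted p = 3.15e-06 and 1.92e-06). CFM3A, an RNA-binding protein of the CRM family, fell by 0.63 and 0.51 (adjusted p = 3.84e-05 and 0.000775). CFM3B, of the same family, fell by 0.60 in WT (adjusted p = 2.03e-05) and differed by -0.18 in pifq (adjusted p = 0.227). CAF1 was the one called higher in WT FR24 than in WL24, by 0.72 (adjusted p = 0.00026). From WL0 to WL24 3 of 3 fell in both genotypes (23.6% and 23.8% of all probe sets were called lower), CAF1 most, with differences of -1.56 in WT and -1.87 in pifq.

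Few mitochondrial factors were represented. Of 50 names of editing factors other than OTP87, PPR596 and MEF8S had probe sets, and of 16 names of processing factors PPR336 had one. PPR596 fell by 0.74 in WT and by 0.57 in pifq at 3 h (limma adjusted p = 6.04e-05 and 0.00171). MEF8S differed by 0.26 in WT (adjusted p = 0.215) and rose by 0.49 in pifq (adjusted p = 0.0165). That call was lost without any of 3 single arrays, with an adjusted p of up to 0.135 (without pifq FR3 replicate 2). PPR336 fell by 0.57 in pifq (adjusted p = 0.000362) and by 0.30 in WT (adjusted p = 0.0488). The WT call was lost without any of 4 single arrays, with an adjusted p of up to 0.249 (without WT FR3 replicate 2). The lists of mitochondrial splicing factors and of organelle transcription had 0 probe sets of their own, and of the plastid processing and translation factors ATAB2 fell by 0.30 in WT and 0.33 in pifq at 3 h.

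Of 42 names of nuclear genes of the chloroplast NDH complex, for whose plastid-encoded subunits several OTP proteins edit the transcript, 5 had a probe set. They moved in both directions. At 3 h in WT CRR41 fell by 0.78, NdhN by 0.58 and CRR42 by 0.38, while NdhL rose by 0.36 (limma adjusted p = 3.36e-08, 4.14e-06, 0.00211 and 0.00113). In WT WL24 against WL0 NdhL rose by 1.18, NdhS by 0.62 and CRR42 by 0.47, while CRR41 fell by 0.70.

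The plastid transcripts on which OTP proteins act were on the array in part, as 7 probe sets. The array reads their amount and not their editing or splicing. The labels give labelling as the standard procedure of the array maker, and how completely organelle RNA, which mostly lacks long poly(A) tails, was labelled was not tested. The rpoC1 transcript, whose splicing needs OTP70, fell by 1.19 in WT and by 0.93 in pifq at 3 h (limma adjusted p = 2.91e-06 and 0.000151), while OTP70 differed by 0.07 and 0.17 without a call. The ycf3 transcript, whose splicing needs OTP51, fell by 0.97 and 1.18 (adjusted p = 5.18e-05 and 5.64e-06).

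Targets of OTP84, OTP85 and OTP86 were not called at 3 h in either genotype. For OTP84, psbZ differed by -0.20 in WT and -0.22 in pifq (limma adjusted p = 0.12 and 0.0992), and ndhF by -0.32 and -0.30 (adjusted p = 0.276 and 0.337). These passed in part under alternatives. With only the arrays compared in the fit, ndhF had an adjusted p of 0.0418 in WT and 0.0313 in pifq. For psbZ it was 0.0312 in WT without WT FR3 replicate 1, and 0.0475 in pifq with a trended robust prior. For OTP85, ndhD differed by -0.19 and -0.03 (adjusted p = 0.136 and 0.893), and for OTP86, rps14 by -0.21 and -0.28 (adjusted p = 0.368 and 0.206). From WL0 to WL24 psbZ fell by 0.64 in WT and 0.56 in pifq and ndhD by 0.46 and 0.36. OTP84 and OTP85 also fell in that comparison, where 23.6% and 23.8% of all probe sets were called lower. The largest falls of the 7 transcripts there were those of rpoC1 (-1.71 in WT and -1.75 in pifq) and ycf3 (-1.43 and -1.32). OTP70, needed to splice the rpoC1 transcript, was not called there in either genotype. The other OTP84 target measured, ndhF, was not called there, with differences of -0.35 in WT (adjusted p = 0.186) and 0.11 in pifq (adjusted p = 0.684), nor was the OTP86 target rps14, at 0.36 and 0.34 (adjusted p = 0.0675 and 0.0763, or 0.0386 and 0.00721 with only the arrays compared). In FR24 ndhD stood 0.42 higher than in WL24 in WT and 0.38 higher in pifq (adjusted p = 0.00172 and 0.00749), while OTP85 was not called. The remaining transcript, ndhG, rose by 0.93 in pifq from WL0 to WL24 (limma adjusted p = 7.68e-06). In WT it differed by 0.25 there (adjusted p = 0.202). Of the 7 transcripts 3 were called lower in pifq than in WT at FR1, where 3102 of 22746 probe sets were called. The genotypes' 24 h responses were called different for 1 of 7, where 3.75% of probe sets were called.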

How the data were processed

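The deposited table holds log2 expression values of 22810 probe sets on 30 arrays, which the authors computed with RMA, per the submitters' processing notes (no version given). RMA equalises the arrays' distributions, so a shift of most transcripts one way cannot be seen, and 3 arrays per group limit the precision. Without its 64 control probe sets the table had 22746, which were fitted with limma 3.58.1 in R 4.3.3 (1 mean per group, 20 residual and 9.44 prior degrees of freedom, two-sided). Names came from the platform annotation joined to RefSeq by gene ID: 13436 probe sets had 1 locus and 8730 no gene there, so many genes are unnamed here. Every OTP member is named, and of each list up to 3 called members per comparison. For the nuclear NDH genes every called member is named in the WT comparisons given. Targets and members given for the lack or loss of a call are named besides. The members and lists were chosen with earlier results of these data known. Same-numbered arrays deviated together (every r over 0.1, from 0.12 to 0.28) in 1 of 17 comparisons of 2 groups, pifq FR1 against WL0. A replicate block shared by all 30 arrays left 0 members called there. That block did not pair the arrays of this comparison alone, and a paired fit was not run. The fit was tested on simulated data.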

Additional observations from a re-analysis of the deposited data

How the results depend on the processing

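The 160 values of the 8 genes were recomputed under alternative settings, which gave 1808 values. Of these 1768 stayed on the same side of the threshold, 17 lost and 21 gained a call, and 2 reversed. A reversal was a change of sign with a call before or after it. Other changes of sign are among the 1768. Of 24 called values 14 kept the call in every alternative that gave a value. Members dropped by the dim filter had none. The 2 reversals were OTP84 at FR24 with WL0 in place of WL24 as control, at -0.64 in WT (adjusted p = 0.000441) and -0.73 in pifq (adjusted p = 0.000104). With that control the count of called members rose from 1 to 3 in WT and from 0 to 3 in pifq. Of all 22746 probe sets, those called rose likewise, from 5283 to 10874 in WT and from 3377 to 10606 in pifq. The seedlings compared then differ in age by a day. Genes of the other lists also changed sign with it in WT (values against WL0 follow). CRR21 (-0.41), CRR28 (-0.38), CAF1 (-0.83) and NdhS (0.38) were called with either control. LPA66 (-0.17) and ndhD (-0.041) were called only against WL24, with limma adjusted p = 0.192 and 0.775 against WL0. CRR22 (-0.26), CFM3B (-0.36), CFM3A (-1.06), PPR336 (-0.61), CRR41 (-0.66), psbZ (-0.40) and ycf3 (-1.35) were called only against WL0.

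A filter on dim probe sets kept 12445 probe sets and of the members OTP70 and OTP81, so called members went from 3 to 1 in WT FR1, WT FR3 and pifq FR3, from 4 to 1 in WT WL24 against WL0, from 2 to 1 in pifq FR3 against FR1, and from 1 to 0 in WT FR24 against WL24, WT FR24 against FR3 and pifq against WT at FR1. With the filter OTP70 gained a call in pifq WL24 against WL0 (0.26, limma adjusted p = 0.0488), where OTP84 and OTP85 were not kept. With arrays centred on their medians, pifq WL24 against WL0 went from 3 to 5 (OTP43 at 0.28 and OTP70 at 0.31 gained calls). With only the arrays compared in the fit, called members went from 0 to 1 in pifq FR1 (OTP81, adjusted p = 0.00736), from 1 to 3 in pifq against WT at FR1 (OTP81 and OTP84 added) and from 1 to 2 in WT FR3 against FR1 (OTP84 added); the cause was not tested. Leaving out 1 array at a time gave 0 to 1 called members for WT FR24 against WL24, for the difference of the 1 h responses, for pifq against WT at FR1 and for FR24 against FR3 in each genotype, 0 to 2 for pifq against WT at FR24 (OTP70 and OTP86 without WT FR24 replicate 3), and 1 to 2 for FR3 against FR1 in each genotype. For each comparison of 2 groups every array was matched to the 3 arrays of the other group, so an array counts several times. Over 17 comparisons 42 of 102 such cases had the best correlation with their own number. In pifq FR1 against WL0 5 of 6 did. In pifq FR3 against WL0 6 of 6 did, with same-number correlations of 0.09 to 0.17 that did not all pass 0.1. There the block kept 3 members called and moved the probe sets called from 6797 to 6830. It changed no call of a member, and moved the probe sets called in WT FR1 from 5267 to 5321. No locus had a second probe set, so averaging probe sets gave no other value.

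Counts over all probe sets moved by over 1.5 times for the difference of the 1 h responses (108, against 176 with the dim filter, 180 with a trended robust prior, 338 without WT FR1 replicate 3 and 68 without pifq WL0 replicate 2). With only the arrays compared, pifq FR24 against WL24 moved from 3377 to 1685, the difference of the 24 h responses from 854 to 389, and pifq against WT from 1891 to 1225 at FR24 and from 1957 to 572 at WL24. With WL0 as control the FR24 counts were 10874 in WT (from 5283), 10606 in pifq and 467 for their difference. Leaving out 1 array moved pifq against WT at WL0 from 380 to between 237 and 244, at FR1 from 3102 to 1713 or 1906, and at FR3 from 2262 to 1492. It moved pifq FR1 against WL0 from 1325 to 845, pifq FR3 against FR1 from 3404 to 2031 and pifq FR24 against WL24 to 2212.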
